A study of Mus musculus with 4 samples.

Results

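The endothelial cells described here line the blood vessels of the mouse sciatic nerve, and their transcriptomes were compared between uninjured adult nerve and the distal nerve 3 days post-injury (3 DPI). A barcode was taken as an endothelial cell when it had at least 200 genes, at most 10% mitochondrial UMIs (unique molecular identifiers, each standing for 1 captured mRNA molecule), at least 4 UMIs summed over Pecam1, Cldn5, Cdh5, Egfl7, Esam and Emcn, and 0 UMIs of Sox10 (Schwann cells), Pdgfra (mesenchymal cells) and Ptprc (immune cells). The rule found 392 endothelial cells in the uninjured library and 190 at 3 DPI, or 582 of the 4226 barcodes of these libraries that passed the gene and mitochondrial filters and of the 13200 barcodes in the 4 libraries of the series. The cells were thus selected on the measured UMIs of these 6 marker genes, whose levels describe the choice and are not results.

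Single-cell transcriptomes were collected by Drop-seq from Wildtype CD1 mice, with 1 library for each condition. The 3 DPI library came from the distal sciatic nerve of adults whose nerve had been resected, and the uninjured library from adult sciatic nerve, and both were cleared of myelin debris with myelin removal beads after collagenase and trypsin digestion. Neonatal nerves gave a library of FACS-sorted cells (P3-P4) and a library prepared with the beads (P2-P3), and their endothelial cells, 133 and 423 by the same rule, served as a reference. The labels do not say how many animals entered each library, so no test between conditions was possible, and each interval below is a 95% interval that covers counting error only.

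The endothelium of nerve is of several kinds. Capillaries inside the fascicles form the blood-nerve barrier, in which tight junctions close the gaps between cells, efflux pumps return lipophilic compounds to the blood, and carriers for glucose, amino acids and lipids supply the endoneurium. Vessels of the epineurium lack this barrier, and their endothelial cells carry fenestral and fatty acid handling proteins such as PLVAP, CD36 and FABP4. After a nerve is cut, the distal stump degenerates, its vessels become leaky, and endothelial cells divide as vessels are remodelled.

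The labelled cell type was checked with 8 endothelial genes that the rule did not use. In the uninjured library Plvap, Tie1, Kdr, Flt1, Eng, Cd93, Ecscr and Icam2 were 5.88- to 15.5-fold higher in the endothelial cells than in the other barcodes of the same library, and at 3 DPI 7.20- to 17.7-fold. Among all genes with at least 50 UMIs over both libraries, 5.4% were at least 2-fold higher at 3 DPI and 5.22% lower. Of 41 such endothelial genes, these 8 included, 38 lay within 2-fold between the conditions, much as most genes did. Among them were Plvap, the diaphragm protein of fenestrae, at 1392 CPM (counts per 1000000 UMIs summed over the endothelial cells of a library) in the uninjured library and 1656 at 3 DPI, Kdr, the main VEGF receptor, at 348 and 480, and Vwf, the clotting glycoprotein, at 471 and 491.

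RNA of other cell types was present at levels that differed between the libraries. Summed over marker lists, mural genes (smooth muscle and pericytes) came to 2915 CPM in uninjured endothelial cells and 3863 at 3 DPI, mesenchymal genes to 2835 and 4351, Schwann genes to 519 and 143, macrophage genes to 151 and 1251, and red blood cell genes to 2222 and 252. Of 16 macrophage genes, 8 were at 0 UMIs in uninjured cells and 1 at 3 DPI, and the defining gene Aif1 had 0 and 1 UMI, most of the 3 DPI sum coming from Spp1, Cd14 and Lyz2. Neutrophil, lymphocyte and perineurial lists came to 149 and 68.2, 3.23 and 18.5, and 614 and 216. At least 4 UMIs of 6 mural genes were found in 29.1% (24.6 to 33.9%) of the uninjured and 26.3% (20.2 to 33.2%) of the 3 DPI cells, against 14.1% and 8.13% of the other barcodes. Endothelial cells with fewer than 4 mural UMIs, 278 and 140, are therefore given as an alternative for several genes below. No barcode sequence was shared between the uninjured and 3 DPI libraries.

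Endothelial cells made up 20.2% (18.4 to 22.0%) of the uninjured barcodes and 8.33% (7.23 to 9.54%) at 3 DPI, and 5.77% and 7.37% of the neonatal FACS and bead barcodes. The share at 3 DPI was smaller than in uninjured nerve by more than counting error. With every barcode thinned to 500 UMIs before the rule was applied, the shares were 12.3% and 2.92%. The uninjured library held 17 cells exactly at 4 marker UMIs and 24 otherwise passing barcodes just outside with 3, and the 3 DPI library 15 and 28. A smaller share can follow from fewer endothelial cells, from more cells of other types or from less marker mRNA per cell, and these cannot be told apart here. Endothelial cells held a median of 2018 UMIs in the uninjured library (range 455 to 38319) and 2859 at 3 DPI (288 to 21712).

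UMIs were summed over the endothelial cells of each library, 1238829 in uninjured nerve and 864873 at 3 DPI, and scaled to 1000000. Of 6662 genes with at least 50 UMIs over both libraries, 360 (5.4%) were at least 2-fold higher at 3 DPI and 348 (5.22%) at least 2-fold lower, and the median log2 ratio was 0.03. The counting interval of each of these ratios excluded 1, but each is a difference between single libraries. The same count between the neonatal preparations, which differ in sorting rather than injury, gave 118 (2.19%) genes higher with FACS and 222 (4.12%) lower of 5386. In all other barcodes 13.1% of 11707 genes were at least 2-fold higher and 7.68% lower. Of the genes higher in endothelial cells, 203 were also at least 2-fold higher in the other barcodes and 157 (2.36% of the genes considered) were not, and of the lower genes 142 were also lower there and 206 (3.09%) were not. The higher set held 63 pseudogene, predicted or ribosomal protein names, 58 of them also higher in other barcodes, whose reads could be split among near-identical copies, and these are not described further.

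**Figure D1:**
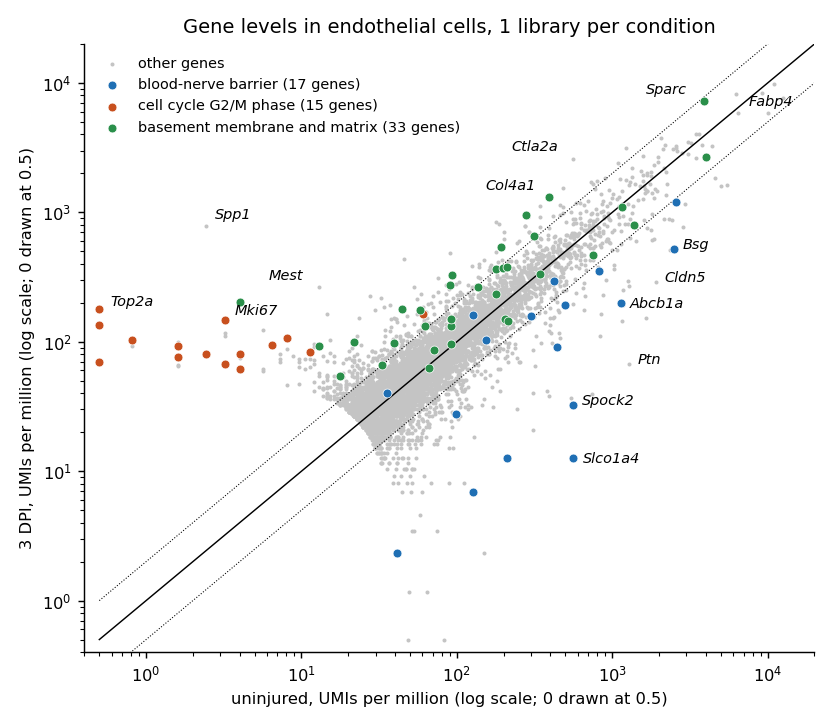
Summed level of each gene considered in endothelial cells, in CPM on log axes, uninjured on the x axis and 3 DPI on the y axis, 1 library each; the solid line marks equal levels and the dotted lines 2-fold. Barrier genes such as Slco1a4 and Spock2 lie below the lines, G2/M genes and Col4a1 above them, and Fabp4 near the diagonal.

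Genes of the blood-nerve barrier were lower as a group at 3 DPI. Of the 17 barrier genes considered, 12 were at least 2-fold lower at 3 DPI and none was higher, against 5.22% lower among all genes. Their median log2 ratio was -1.84 in endothelial cells and -0.80 for the same genes in other barcodes. The list held 24 genes, and the 7 with too few UMIs over both libraries are not counted in either direction. Genes with few UMIs at 3 DPI, such as Mfsd2a and Slc7a5 (11 and 6), passed that minimum through the uninjured library. The count of 12 therefore depends in part on that minimum. Summed over all 24 genes without it, the list came to 10675 CPM in uninjured and 3449 CPM in 3 DPI endothelial cells. In other barcodes it came to 3118 and 2061. Slco1a4, Mfsd2a and Spock2 had some of the largest differences of the group. Slco1a4, an organic anion and thyroid hormone carrier, stood at 563 CPM (522 to 606) in uninjured nerve and 12.7 (6.35 to 22.8) at 3 DPI, 44.2-fold lower (24.6- to 89.0-fold). Mfsd2a, the carrier of lysophosphatidylcholine lipids, was at 210 and 12.7, 16.5-fold lower (9.07 to 33.5). Spock2, a secreted proteoglycan of barrier endothelium, was at 557 and 32.4, a 17.2-fold difference (11.8 to 26.1). For these 3 genes the intervals of the conditions were far from overlapping. Other barcodes were also lower at 3 DPI, with Slco1a4 at 30.4 and 0.842, Mfsd2a at 18.2 and 0.983 and Spock2 at 60.8 and 8.28. For Slco1a4 and Mfsd2a the interval of the difference between the log2 ratios of endothelial cells and other barcodes spanned 0. A larger fold difference in endothelial cells was therefore not shown for them. In neonatal endothelial cells, FACS and beads, Slco1a4 was at 24.5 and 41.9, Mfsd2a at 9.80 and 7.62 and Spock2 at 61.3 and 69.6, all nearer to the 3 DPI than to the uninjured level.

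The amino acid, glucose and efflux carriers were lower too. Slc7a5, the light chain of the large neutral amino acid carrier, was at 128 and 6.94 CPM, and its heavy chain Slc3a2 at 497 and 193, 18.4-fold (8.26 to 50.9) and 2.57-fold (2.17 to 3.07) lower. Slc2a1, the glucose carrier GLUT1, was at 443 and 91.3, 4.85-fold lower (3.83 to 6.22). Abcb1a, the P-glycoprotein efflux pump, was at 1140 and 200, 5.70-fold lower (4.86 to 6.71), and Abcg2, a further efflux pump, at 827 and 353, 2.35-fold lower. Bsg, the basigin chaperone of lactate carriers, was among the most abundant barrier mRNAs at 2482 and was at 524 at 3 DPI, 4.74-fold lower (4.29 to 5.24). Neonatal levels were 218 and 191 for Abcb1a and 843 and 1041 for Bsg, also below the uninjured adult. Ly6c1, a surface antigen of endothelium, was at 2560 and 1198, 2.14-fold lower (1.99 to 2.30).

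Junction genes were less uniform than carriers. Cldn5, the main endothelial claudin, is a gene of the rule, and its level is given as a description: 1902 CPM in uninjured and 290 in 3 DPI cells, with 55.6% and 22.6% of cells having a UMI. When cells were chosen with the other 5 markers only, Cldn5 was at 1866 and 280. Lsr, the tricellular junction protein angulin-1, was 3.58-fold lower (2.30 to 5.80), while the scaffold Tjp1 was at 302 and 158 and the adhesion molecule Jam2 at 424 and 295, both within 2-fold. Abcc4, an efflux pump, and Itm2a, a membrane protein, did not go lower (35.5 and 40.5, and 127 and 162). Slco1c1, the thyroxine carrier, had too few UMIs to be considered.

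**Figure D2:**
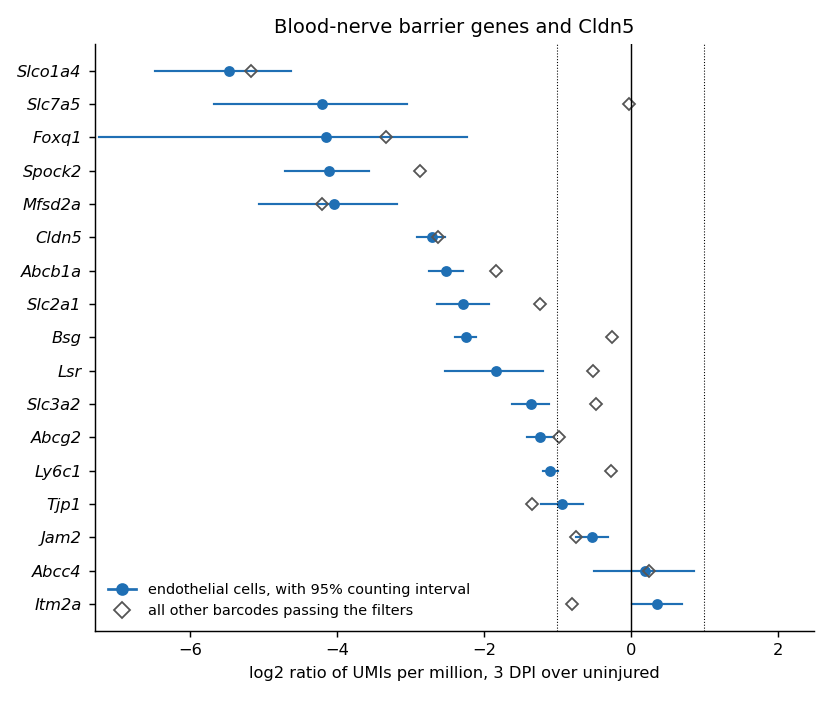
Log2 ratio of CPM, 3 DPI over uninjured, on the x axis for 16 of the 17 barrier genes considered and for Cldn5; filled points are endothelial cells with the 95% counting interval as bars (that of Foxq1 reaches the edge), open diamonds all other barcodes, and dotted lines mark 2-fold. The 12 lower barrier genes lie left of -1. In other barcodes Slc7a5 and Bsg lie close to 0, while Slco1a4 and Mfsd2a lie near their endothelial points.

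Uninjured nerve and 3 DPI differed in how many cells held mRNA of 3 barrier genes as well as in the summed level. The UMIs of Slco1a4, Mfsd2a and Spock2 were added per cell, a sum chosen after their values were seen. In uninjured nerve 136 of 392 endothelial cells (34.7%, 29.99 to 39.6%) had at least 2 of these UMIs, and 66 (16.8%) had 10 or more. At 3 DPI 9 of 190 cells (4.74%, 2.19 to 8.80%) had at least 2, and 1 cell had 10 or more. The neonatal libraries lay near the injured one, with 7.52% of FACS-sorted and 6.38% of bead-prepared cells. After thinning to 500 UMIs the shares were 20.5% in uninjured and 0 of 187 at 3 DPI (interval up to 1.95%), so the deeper 3 DPI library did not hold more such cells at matched depth. The other barcodes reached 2 UMIs in 2.83% and 0.574%. They include barcodes with enough marker UMIs that held a UMI of Sox10, Pdgfra or Ptprc, 33 in the uninjured and 21 in the 3 DPI library. They therefore need not lack these mRNAs.

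**Figure D3:**
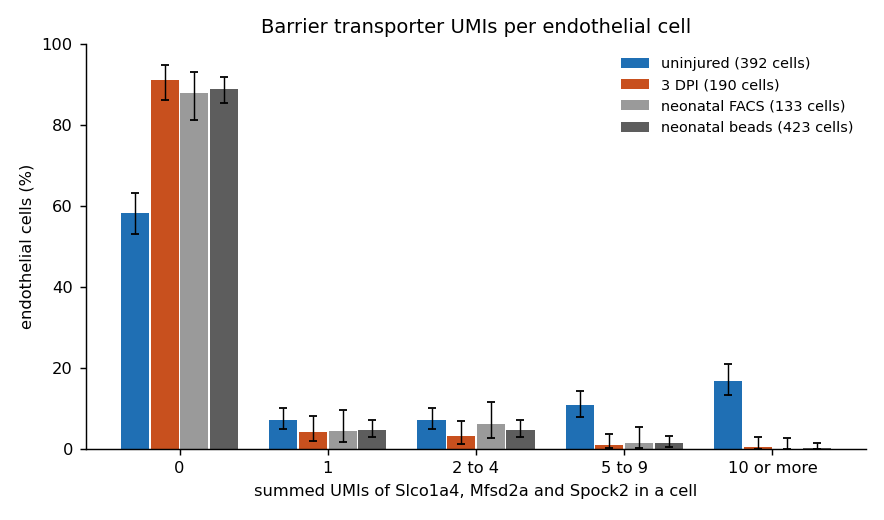
Percent of endothelial cells by the summed UMIs of Slco1a4, Mfsd2a and Spock2 per cell, for each of the 4 libraries, with Clopper-Pearson 95% intervals as bars. Cells with 0 of these UMIs were 58.2% of the uninjured and 91.1% of the 3 DPI cells, and 27.6% and 1.58% had 5 or more.

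In uninjured nerve the cells with at least 2 of these UMIs differed from the 228 with none in many genes that the sum did not use. The genes listed here were chosen after their values were seen. In the cells with at least 2 of these UMIs, Slc7a5 was at 287 CPM against 3.34, the membrane protein gene Mal at 1011 against 41.8, the zinc carrier Slc39a8 at 889 against 45.1, and Ptn, a secreted heparin-binding growth factor, at 2764 against 155. Abcb1a was at 2243 against 289 and Bsg at 4666 against 817. In the opposite direction, Fabp4, a fatty acid binding protein, was at 18920 in cells with none of these UMIs and 1578 in cells with at least 2, Cd36, a fatty acid receptor, at 2853 and 308, Plvap at 2376 and 268, the water channel Aqp1 at 2475 and 308, and Selp, the venular leukocyte receptor P-selectin, at 531 and 53.6. Cdh5 (627 and 502) and Vwf (466 and 458) were close between them. The sets differed in depth, with median total UMIs of 2719 in the cells with at least 2 of these UMIs and 1868 in those with none.

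Among the cells without UMIs of these 3 barrier genes, Abcb1a, Bsg and Slc2a1 were lower at 3 DPI by less than 2-fold. In the 228 uninjured and 173 injured cells with 0 UMIs of Slco1a4, Mfsd2a and Spock2, Abcb1a was at 289 and 151 CPM, 1.92-fold lower (1.502 to 2.46), Bsg at 817 and 489, 1.67-fold lower (1.45 to 1.92), and Slc2a1 at 100.3 and 64.4, 1.56-fold lower (1.05 to 2.33). The same genes were 5.70-, 4.74- and 4.85-fold lower over all endothelial cells. The cells with 0 of these UMIs had a median depth of 1868 UMIs in uninjured nerve and 2774 at 3 DPI. A cell that carries these mRNAs can more easily show 0 UMIs at lower depth, and the part of depth in these differences was not tested. Slc7a5 was at 3.34 and 4.11 in these cells, a ratio of 1.23 (0.141 to 14.7), too few UMIs to give a direction. Cldn5, a gene of the rule, was at 560 and 144, given as a description. Igf2, the insulin-like growth factor 2 gene, was 9.15-fold lower (6.15 to 14.1) in them, at 351 and 38.4, much as over all cells. Plvap was at 2376 and 1697 and Cdh5 at 627 and 681. Loss of the cells that carry the barrier and lower mRNA in each of them cannot be told apart from these sums.

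Genes of canonical Wnt signalling, which induces barrier properties in the vessels of the central nervous system, held 4 of 11 at least 2-fold lower, against 5.22% of all genes, and none higher. They were Axin2, Nkd1 and Lef1, targets and effectors of beta-catenin, and the transcription factor Sox17, which is also counted in the arterial list below. Axin2 was at 51.7 and 3.47 CPM (64 and 3 UMIs), a ratio of 0.0671 (0.0135 to 0.205), Lef1 at 77.5 and 18.5, 4.19-fold lower (2.45 to 7.62), and Sox17 at 446 and 177. The receptors and beta-catenin were within 2-fold: Fzd4 was at 84.0 and 56.7, Lrp6 at 94.4 and 124, and Ctnnb1, beta-catenin, at 513 and 572. Foxq1, a transcription factor of barrier endothelium, had 51 UMIs in uninjured nerve and 2 at 3 DPI. With cells thinned to 500 UMIs the log2 ratios of Axin2 and Foxq1 were -0.68 and -0.16, no longer past 2-fold. In cells with 0 UMIs of Slco1a4, Mfsd2a and Spock2, Axin2 was at 6.68 and 4.11 CPM, 1.63-fold lower with an interval that spans 1 (0.275 to 11.1). Other barcodes moved the same way for Axin2 (23.5 and 4.35), and Lef1 was low there in both (5.95 and 3.09).

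Arterial and Notch genes were lower as well. Of 20 arterial genes 9 were at least 2-fold lower, against 5.22% of all genes, and none higher, with a median log2 ratio of -0.93 that was the same in other barcodes (-0.93). Bmx, an arterial tyrosine kinase, was at 308 and 40.5 CPM, 7.60-fold lower (5.37 to 11.1), and Gkn3, gastrokine 3, at 244 and 30.1, 8.11-fold lower (5.43 to 12.6). Of the uninjured Gkn3 UMIs 35.1% were in 1 cell. Cytl1, a cytokine-like secreted protein, was at 544 and 37.0, with 50 and 7 cells holding its UMIs and 65.6% of the 3 DPI UMIs in 1 cell. These genes were not separate from the barrier sum. In uninjured cells with at least 2 UMIs of Slco1a4, Mfsd2a and Spock2, Bmx was at 529 CPM, against 86.9 in cells with 0. Gkn3 was at 209 against 115, and Cytl1 went the other way, at 232 against 578. Of 11 Notch genes 4 were lower, against the same 5.22%: Hes1, a Notch target, at 408 and 97.1, and the ligands Dll4 at 93.6 and 28.9, Jag2 at 49.2 and 17.3 and Dll1 at 71.8 and 27.7. Notch1 (142 and 117), Notch4 (70.2 and 76.3) and Nrarp, a Notch target (50.05 and 52.0), were within 2-fold. At least 2 UMIs of the arterial list were found in 86.5% and 88.4% of cells, and in 50.8% and 43.9% after thinning, so this cut did not separate the conditions.

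Most venous and capillary genes stayed within 2-fold. Of 12 venous genes 2 were lower and of 14 capillary genes 3, against 5.22% of all genes, and none was higher, against 5.4%. Sele, the inducible leukocyte receptor E-selectin, was at 237 and 96.0 CPM, and Ch25h, cholesterol 25-hydroxylase, at 134 and 59.0. Selp was at 341 and 435 and Lrg1, a secreted glycoprotein of venules, at 773 and 1520. In cells with fewer than 4 mural UMIs these were at 129 and 432 and at 391 and 1635, so that both passed 2-fold there, 3.34-fold (2.58 to 4.35) and 4.18-fold (3.62 to 4.83) higher. The 3 capillary genes that were lower were Slc7a5, Mfsd2a and Car4, the membrane carbonic anhydrase, while Fabp4 (10968 and 9739), Cd36 (1673 and 1466), Gpihbp1, which holds lipoprotein lipase on capillaries (305 and 268), and Rbp7 (536 and 549) were within 2-fold.

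Lymphatic endothelial mRNA was rare. At least 2 UMIs of Prox1, Lyve1, Ccl21a and Mmrn1 were found in 7 uninjured cells (1.79%) and 2 cells at 3 DPI (1.05%). Ccl21a, a lymphatic chemokine, had 102 UMIs in 6 uninjured cells, 80.4% of them in 1 cell, and 0 at 3 DPI, so its difference of at least 23.7-fold rests on very few cells.

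Dividing endothelial cells were common at 3 DPI. A UMI of Mki67, the Ki-67 antigen, or Top2a, the mitotic topoisomerase, was found in 3 of 392 uninjured cells (0.765%, 0.158 to 2.22%) and in 37 of 190 at 3 DPI (19.5%, 14.1 to 25.8%). In the neonatal libraries the shares were 17.3% and 20.1%. Thinned to 500 UMIs they were 0.256% in uninjured, 8.56% at 3 DPI, 8.53% in neonatal FACS and 9.25% in neonatal bead cells, so the order held at matched depth. Other barcodes showed 0.644% and 14.1%.

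All 15 G2/M genes considered were at least 2-fold higher at 3 DPI, against 5.4% of all genes. Their median log2 ratio was 4.84 in endothelial cells and 4.56 in other barcodes. The list held 30 genes, and the other 15 had too few UMIs over both libraries to be considered. Top2a, Prc1 and Ccnb2, with 0 UMIs in uninjured cells, passed that minimum through 3 DPI alone. The count of 15 therefore depends in part on that minimum. Summed over all 30 genes without it, the list came to 124 CPM in uninjured and 1997 CPM in 3 DPI endothelial cells. In other barcodes it came to 107 and 1904. Top2a had 0 UMIs in uninjured cells and 154 at 3 DPI (178 CPM), at least 73.5-fold higher with the floor of 3 UMIs for the library. Prc1, which bundles the spindle midzone, had 0 and 116, at least 55.4-fold, and Ccnb2, cyclin B2, 0 and 60, at least 28.6-fold. Mki67 had 4 and 127 UMIs, 45.5-fold (17.3 to 169). Of 9 S phase genes 3 were higher, against 5.4% of all genes, among them Tyms, thymidylate synthase, at 29.9 and 83.2, while Pcna, the replication clamp, was at 107 and 134.

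Promoters of G2/M genes share short letter patterns, and 4 windows of 120 bases are shown because these genes had some of the largest ratios, Ube2c also because its bases hold both patterns. CCAAT is the core of the box bound by NF-Y and TTTGAA that of the cell cycle homology region; sequences are from RefSeq, build GRCm38.p6, 5′ to 3′ on the strand of the gene, with CCAAT or its reverse complement ATTGG and TTTGAA or its reverse complement TTCAAA in capitals. Top2a is at chr11:99024190-99024309 (minus strand), Prc1 at chr7:80294331-80294450 (plus), Ccnb2 at chr9:70421555-70421674 (minus) and Ube2c, the mitotic ubiquitin-conjugating enzyme, at chr2:164769809-164769928 (plus).
Top2a: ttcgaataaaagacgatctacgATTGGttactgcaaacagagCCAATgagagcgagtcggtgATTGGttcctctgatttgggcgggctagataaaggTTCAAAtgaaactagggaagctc
Prc1: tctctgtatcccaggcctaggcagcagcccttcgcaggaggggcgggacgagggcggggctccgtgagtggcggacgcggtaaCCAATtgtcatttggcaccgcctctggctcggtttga
Ccnb2: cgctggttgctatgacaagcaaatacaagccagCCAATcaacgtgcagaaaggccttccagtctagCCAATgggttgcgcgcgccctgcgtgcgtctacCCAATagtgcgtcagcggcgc
Ube2c: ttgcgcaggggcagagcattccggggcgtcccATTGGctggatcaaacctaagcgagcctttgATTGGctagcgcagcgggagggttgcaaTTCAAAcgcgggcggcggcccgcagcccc

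Over the window from 250 bases before to 50 after the start, 23 of 26 G2/M genes with a window (88.5%) held CCAAT on either strand, against 37.9% of 27025 windows, and 20 of 26 (76.9%) held TTTGAA, against 18.1%. Both were in 20 of 26 windows, against 7.12% of all. The shorter windows of 120 bases were less regular. Those of Mki67 and Cenpf, not shown, held CCAAT 0 and 1 times and TTTGAA 2 and 0 times. The letters describe these windows and were not tested as binding sites.

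The 37 dividing cells at 3 DPI were deeper than the other 153, with medians of 6227 and 2575 UMIs. Apln, the tip cell peptide apelin, was at 112 CPM in dividing and 22.1 in other cells, 5.09-fold higher (2.59 to 10.6). It was 2.98-fold higher (1.36 to 6.68) without the dividing cell that held the largest share of its UMIs (31.8%). Selp was lower in dividing cells, at 192 and 548, and so was Vwf, at 304 and 579. Ctla2a was nearly equal, at 2577 and 2610, and Col4a1 was at 1551 and 1212. Which cells a UMI of Mki67 or Top2a marks depends on depth, and these values compare cells of 1 library.

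**Figure D4:**
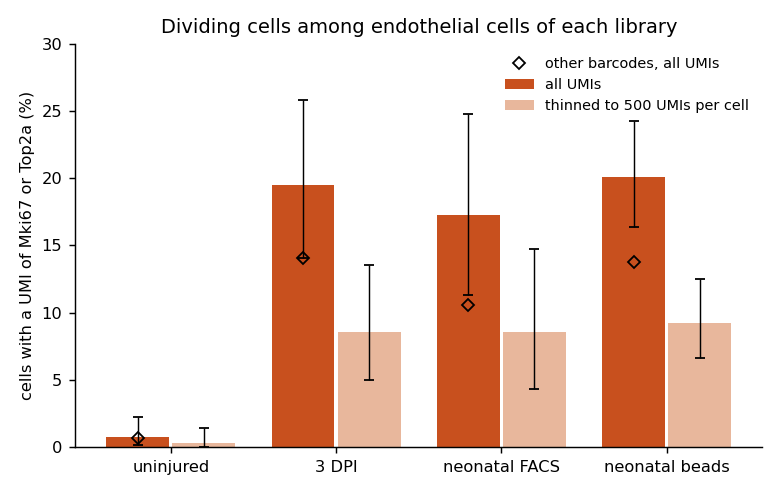
Percent of endothelial cells with a UMI of Mki67 or Top2a in each of the 4 libraries, at their own depth and thinned to 500 UMIs, with Clopper-Pearson 95% intervals as bars, beside the other barcodes. The uninjured cells lie below 1%, and the 3 DPI cells at 19.5% lie with the neonatal cells at 17.3% and 20.1%.

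Basement membrane and matrix genes were higher as a group. Of 33 considered, 15 were at least 2-fold higher at 3 DPI, against 5.4% of all genes, and none was lower, with a median log2 ratio of 0.97 in endothelial cells and 0.19 in other barcodes. Col4a1 and Col4a2, the chains of type IV collagen, were at 389 (355 to 425) and 1320 CPM (1245 to 1399) and at 277 and 950, 3.39-fold (3.05 to 3.78) and 3.43-fold (3.02 to 3.91) higher. Both were nearly level in other barcodes (460 and 527 for Col4a1, 278 and 336 for Col4a2). Col4a1 was higher still in neonatal endothelial cells, at 2085 and 2103.

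Other components of the vascular basement membrane were higher too. Col18a1, the source of endostatin, was at 92.8 and 326 CPM, Nid1, the linker nidogen-1, at 90.4 and 274, and Lamb1, the laminin beta-1 chain, at 58.1 and 175, each more than 3-fold higher. With cells thinned to 500 UMIs the log2 ratio of Nid1 was 0.06 and that of Lamb1 0.99, neither past 2-fold, while Col18a1 stayed past it under every alternative run. Mmp14, a membrane-bound collagenase, was at 44.4 and 179, 4.04-fold higher (2.95 to 5.596). Sparc, a collagen-binding protein, was abundant at 3886 and 7259, 1.87-fold higher (1.80 to 1.94), and Serpinh1, the collagen chaperone HSP47, was at 314 and 658. Lama4, the laminin alpha-4 chain, was at 205 and 149 and Timp3, a metalloproteinase inhibitor, at 1387 and 801, neither past 2-fold.

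The summed mesenchymal markers were higher at 3 DPI in the same cells (2835 and 4351 CPM), and mesenchymal barcodes held more Nid1 (1200 and 866) and Lamb1 (450 and 307) than endothelial cells did, with Col4a1 at 511 and 486; the part of mesenchymal RNA in the matrix values was not tested. Mural barcodes held the same collagens, with Col4a1 at 667 and 1511 CPM in that comparison class. In endothelial cells with fewer than 4 mural UMIs Col4a1 was at 452 and 1421, 3.14-fold higher (2.74 to 3.62), and Nid1 3.09-fold higher (2.29 to 4.22). Rgs5, a pericyte gene, is among the 6 mural genes of this cut. Its level below the cut follows from the choice of cells. It was at 480 and 1555 over all endothelial cells, and at 39.0 and 26.5 (25 and 13 UMIs) in those with few mural UMIs.

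Sprouting genes overlapped with the matrix group. Of 18 tip cell genes 6 were higher, against 5.4% of all genes, and 5 of these were the type IV collagen, nidogen and laminin genes shared with the matrix list; the other was Mcam, the adhesion molecule CD146, at 70.2 and 185 CPM, 2.63-fold higher (2.02 to 3.46). The tip cell genes Dll4 and Flt4, VEGF receptor 3, were lower, and Esm1, endocan (62.2 and 49.7), Apln (47.6 and 50.9), Angpt2, angiopoietin-2 (96.9 and 71.7) and Pdgfb (164 and 86.7) were within 2-fold. Of 13 VEGF, angiopoietin and apelin genes, Aplnr, the apelin receptor, at 84.8 and 186, and Angptl4, at 50.9 and 110, were the higher ones. Flt1, the VEGF decoy receptor, was at 1271 and 807 and Tek, the angiopoietin receptor, at 316 and 232.

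Among single genes, Ctla2a, a cysteine protease inhibitor abundant in endothelium, was at 560 CPM (519 to 603) in uninjured and 2599 (2493 to 2709) in 3 DPI cells, 4.64-fold higher (4.26 to 5.06). It was found in 54.3% and 81.6% of cells, and its level in other barcodes was 73.0 and 259 and in neonatal endothelial cells 671 and 906. Mest, an imprinted gene of growing tissue, was at 12.9 and 265, 20.5-fold higher (12.4 to 36.5), with UMIs in 12 and 52 cells and 29.3% of the 3 DPI UMIs in 1 cell. In neonatal endothelial cells Mest was at 1877 and 1081. Thy1, a surface glycoprotein also made by fibroblasts, was at 14.5 and 164, 11.3-fold higher (6.90 to 19.6), and at 124 and 466 in other barcodes. The retinoic acid enzyme gene Aldh1a3 was at 3.23 and 111, but 52.1% of its 3 DPI UMIs lay in 1 of 12 cells.

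Of 43 ligands considered for which other nerve cells have receptors, 12 were at least 2-fold lower and 4 higher, against 5.22% and 5.4% of all genes, with a median log2 ratio of -0.43 in endothelial cells and -0.22 in other barcodes. Ptn had the largest fold among the lower ones: it was at 1278 CPM (1216 to 1342) in uninjured endothelial cells and 67.1 (50.9 to 86.7) at 3 DPI, 19.1-fold lower (14.7 to 25.2), in 187 and 22 cells. In cells with 0 UMIs of Slco1a4, Mfsd2a and Spock2, Ptn was at 155 and 49.3, 3.15-fold lower (2.12 to 4.77). Neonatal endothelial cells had Ptn at 247 and 131. In other barcodes it was at 174 and 199, so that its level relative to them went from 7.36-fold to 0.337-fold. Igf2 was at 379 and 41.6, 9.11-fold lower (6.49 to 13.2), against 63.9 and 57.3 in other barcodes, and 26.6% of its uninjured UMIs were in 1 cell. Neonatal endothelial cells had Igf2 at 1612 and 1406.

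Chemokine and growth arrest ligands were lower by smaller amounts. Cxcl12, which guides leukocytes and progenitors, was at 2310 and 890 CPM, 2.59-fold lower (2.40 to 2.81), Gas6, a ligand of the TAM receptors, at 457 and 118, 3.87-fold (3.13 to 4.83), and Cx3cl1, fractalkine, at 51.7 and 8.09, 6.38-fold (2.93 to 16.5). In cells that also had 0 UMIs of 4 markers of other cell types the log2 ratio of Cxcl12 was -0.34, no longer past 2-fold. Gas6 was also lower in other barcodes (550 and 203), whereas Cx3cl1 there was at 6.58 and 11.7. Edn1, endothelin-1 (1141 and 721), and Kitl, stem cell factor (532 and 416), were within 2-fold. The 4 higher ligands were Ccl2, Il33, Inhba and Spp1. Ccl2, a monocyte chemokine, was at 12.1 and 91.3, 7.54-fold higher (4.31 to 14.1), in 26.8% of 3 DPI cells, but at 99.9 and 988 in other barcodes, which held more of it. Single cells carried 47.9% of Il33, 98.2% of Inhba and 50.2% of Spp1 UMIs at 3 DPI.

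Ratios in endothelial cells departed most from those in other barcodes, in the lower direction, for Ptn, Slc7a5, Car4, Igf2, Sema7a, Alpl, Cx3cl1, Smad7, Slfn2 and Cgnl1. Car4 was at 391 and 38.2 CPM, 10.2-fold lower (7.19 to 15.05), against 20.7 and 22.5 in other barcodes. Smad7, the inhibitory Smad, was at 61.3 and 9.25, 6.63-fold lower (3.20 to 15.9), against 17.5 and 25.8, and Cgnl1, the junction protein paracingulin, at 170 and 45.1, 3.76-fold lower (2.66 to 5.44). In the other direction the list was Angptl7, Mest, Art3, Epyc, Crispld2, Enpp2, Rasl11a, Hmgcs1, Serpina1b and Myh11, of which 4 were past 2-fold in endothelial cells. Epyc, a cartilage proteoglycan, had 2 and 56 UMIs there, 53.6% of them in 1 cell at 3 DPI.

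**Figure D5:**
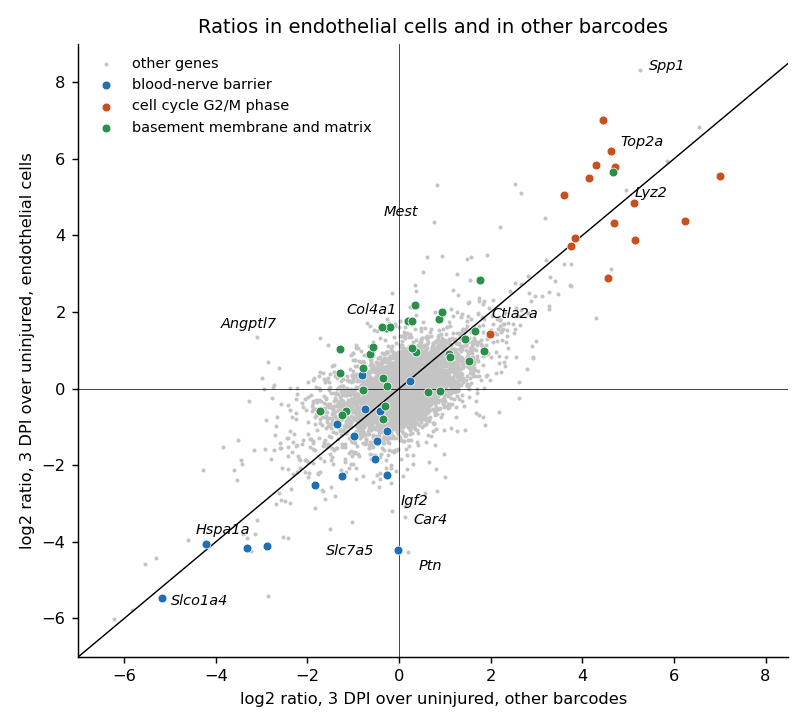
Log2 ratio of each gene, 3 DPI over uninjured, in all other barcodes on the x axis and in endothelial cells on the y axis; the diagonal marks equal ratios. Ptn, Slc7a5, Car4 and Igf2 lie far below the diagonal near an x of 0, Mest, Col4a1 and Top2a above it, and Hspa1a close to it.

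Signalling through BMP and TGF-beta held 4 of 18 genes lower, against 5.22% of all genes, and none higher: Smad7, Id2, Id1 and Acvrl1. Id1, a BMP target, was at 417 and 153 CPM, 2.73-fold lower (2.25 to 3.33), and Acvrl1, the ALK1 receptor, at 251 and 125, while Eng, its coreceptor, was at 447 and 531. Inflammatory genes did not move as a block. Of 22 leukocyte adhesion and chemokine genes 4 were higher (Ccl2, Cxcl9, Ccl7 and Il1r1) and 3 lower (Cx3cl1, Cxcl12 and Sele), against 5.4% and 5.22% of all genes, and Icam1 (177 and 128), Vcam1 (111 and 63.6) and Darc, the venular chemokine receptor (448 and 399), were within 2-fold. Of Cxcl9's 3 DPI UMIs 66.7% were in 1 cell. Nfkbia, the NF-kappaB inhibitor, was at 1675 and 758.

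Immediate early genes, which also respond to dissociation, were lower throughout the tissue. In endothelial cells 20 of 27 were at least 2-fold lower, against 5.22% of all genes, and none higher, with a median log2 ratio of -1.34, and -1.63 in other barcodes. Fos was at 5016 and 1598 CPM, Jun at 4566 and 1831, Atf3 at 1148 and 146, and the heat shock gene Hspa1a at 1641 and 153. Klf2 and Klf4, transcription factors that respond to flow and to the same stimuli, were at 1792 and 614 and at 911 and 299, and at 681 and 265 and 749 and 279 in other barcodes. The labels give no handling times, and the part of handling in these values was not tested.

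Several of the largest ratios belonged to genes that were higher in other barcodes than in endothelial cells. Spp1, osteopontin, had 3 UMIs in uninjured and 675 in 3 DPI endothelial cells, while other barcodes went from 89.6 to 3411 CPM. Lyz2 of macrophages was at 3.23 and 118, against 40.1 and 1240, and Timp1, a protease inhibitor, at 4.04 and 205, against 36.6 and 935. Hba-a1, alpha-globin, was at 735 and 39.3, with 85.0% of the uninjured UMIs in 1 cell. Collagen I genes, which fibroblasts make at far higher levels, were also higher in endothelial cells, with Col1a1 at 187 and 814 against 6071 and 7216. The summed macrophage, mesenchymal and red blood cell marker levels given above moved with these genes. Spp1, Lyz2 and Hba-a1 are themselves counted in those sums, so this is not a separate comparison. The part of RNA of other cell types in the endothelial values was not tested.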

How the data were processed

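Drop-seq cells of 4 mouse nerve libraries were analysed, 2 adult and 2 neonatal. The authors deposited matrices of UMI counts per gene and barcode, 1 per library; the submitters' processing notes name the mm10 build, and the sources used here give no aligner or annotation version. Counts were used as deposited. Endothelial cells and gene lists were chosen with earlier results of these data known. No doublet caller was used in choosing the cells. An alternative left out barcodes by Scrublet score, among them 29 endothelial cells in the uninjured and 11 in the 3 DPI library. UMIs were summed over cells, scaled to 1000000, and given exact Poisson intervals; ratios had exact conditional binomial and shares exact Clopper-Pearson 95% intervals. A gene was considered at 50 UMIs over both libraries and called past 2-fold, with a floor of 3 UMIs for a library at 0. Shares were repeated in cells thinned to 500 UMIs. Named genes were the 15 most extreme ratios in each direction, the 10 that differed most from other barcodes, the 15 highest, the 15 most endothelial, and members of 35 lists; any other was chosen after its values were seen, and 2 are not reported here. Comparison classes were mural, mesenchymal, Schwann and immune barcodes. The calculations, tested on simulated data, used Python 3.11.15, numpy 2.4.6, scipy 1.17.1, pandas 2.3.3, scanpy 1.11.5 (Scrublet scores) and matplotlib 3.10.9. Promoter windows came from RefSeq. Gene ratios were recomputed under 15 alternatives. Totals were 4513814 (uninjured), 8123103 (3 DPI), 5110171 (neonatal FACS) and 7634799 UMIs (neonatal beads). UMIs are counted molecules, and intervals cover counting error only.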

Additional observations from a re-analysis of the deposited data

Results flagged for a closer look

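Several genes moved past 2-fold in opposite directions in endothelial cells and in the other barcodes of the same libraries, and with 1 library per condition the difference was not tested. Angptl7, Col15a1, Des and Serpina1b were higher at 3 DPI in endothelial cells and lower elsewhere. Angptl7, a secreted angiopoietin-like protein, was at 38.7 and 98.3 CPM (counts per 1000000 UMIs) against 1542 and 179 in other barcodes, a difference of 4.45 between the log2 ratios, with 85.9% of its 3 DPI UMIs in endothelial cells held by 1 cell; without each library's highest cell for the gene its log2 ratio was -1.42, and it was also below 0 with at least 6 marker UMIs (-1.35) and with 4 further markers at 0 (-1.63). Col15a1, a basement membrane collagen, was at 179 and 367 against 1099 and 450 (difference 2.32). Des, the muscle filament desmin and a marker of smooth muscle and pericytes, was at 39.6 and 87.9 against 87.4 and 29.9 (2.70), and Serpina1b, a protease inhibitor, at 25.02 and 62.4 against 23.2 and 7.02 (3.04). Mural genes were detected in these cells, and the part of mural RNA in the Des value was not tested. In cells with fewer than 4 mural UMIs the log2 ratio of Serpina1b was -2.26, so that its direction turned. Lower in endothelial cells and higher elsewhere were Ctsc, the protease cathepsin C, at 70.2 and 34.7 against 32.3 and 70.9 (-2.15), Gcnt1, a glycosyltransferase, at 36.3 and 17.3 against 12.5 and 33.8 (-2.50), and N4bp3 at 67.0 and 31.2 against 4.70 and 11.2 (-2.36).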

How the results depend on the processing

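No paired analysis was possible because each condition is 1 library and the labels give no replicate numbers. The 12 lower barrier genes, higher type IV collagen genes and higher Mki67 or Top2a share kept their direction under each alternative tried. The counts of genes at least 2-fold higher and lower depended on how many UMIs were kept: 45 and 71 when 4 markers of other cell types also had to be at 0, 67 and 106 with cells thinned to 500 UMIs, 818 and 628 with at least 20 UMIs per gene and 191 and 207 with at least 100. Of the gene ratios past 2-fold that were recomputed, 45 of 61 stayed past it under all 15 settings; Axin2, Foxq1, Abcg2, Nid1, Lamb1, Mcam, Cxcl12 and Smad7 were among those that did not. Among genes past 2-fold, log2 ratios reversed for Angptl7 (-1.35 with 6 marker UMIs, -1.63 with the extra zeros, -1.42 without each gene's highest cell) and Alpl (0.65 thinned). With fewer than 4 mural UMIs they reversed for Serpina1b (-2.26) and Rgs5 (-0.56), the latter a gene of that cut, so that its value follows from removing cells by it. The G2/M list median also reversed (-0.10 without dividing cells, which follows from removing cells by Mki67 and Top2a). Some genes within 2-fold changed sign too, such as Art3 (as low as -1.95) and Crispld2 (-2.28). The endothelial share, uninjured and 3 DPI, was 22.2% and 10.1% with 500 genes, 18.3% and 6.88% with 6 marker UMIs, 3.91% and 1.97% with the extra zeros and 12.3% and 2.92% thinned, and 9.56% at 3 DPI with 3 marker UMIs. With the extra zeros and thinned, respectively, the share with 2 UMIs of Slco1a4, Mfsd2a and Spock2 was 27.6% and 20.5% in uninjured and 0 and 0 at 3 DPI, that with 2 G2/M UMIs 2.63% and 0.513% in uninjured (6.89% otherwise) and 17.8% and 13.4% at 3 DPI (34.2%), and that with Mki67 or Top2a 0 in uninjured with the extra zeros and 8.56% at 3 DPI thinned. The same settings gave 76.3% and 50.8% for 2 arterial UMIs in uninjured and 82.2% and 43.9% at 3 DPI, 43.4% and 31.3% and 66.7% and 46.5% for venous, 88.2% and 73.3% for capillary in uninjured and 70.6% thinned at 3 DPI, and 13.2% and 7.18% and 28.9% and 5.35% for lymphatic. With fewer than 4 mural UMIs the venous share was 52.5% in uninjured, and the lymphatic share 17.6% and 38.6%. The settings without Cldn5, with few mural UMIs, without each gene's highest cell, and the barrier sum itself were chosen after seeing the data. Depth limits low genes: a gene under 50 UMIs over both libraries was not considered.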

Other observations

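Genes of lipid handling, clotting and energy use were mostly level between the conditions, as most genes were. Of all genes considered, 5.4% were at least 2-fold higher and 5.22% lower. Of 13 fatty acid genes 11 were within 2-fold; Angptl4, an inhibitor of lipoprotein lipase, was higher (50.9 and 110 CPM) and Pnpla2, the triglyceride lipase, lower (107 and 41.6). Of 13 coagulation genes, Tfpi, the tissue factor pathway inhibitor, was higher, at 37.9 and 83.2, and Gas6 lower, while Thbd, thrombomodulin (450 and 287), and Procr, the protein C receptor (341 and 254), were within 2-fold. Of 19 glycolysis and hypoxia genes, Pkm, pyruvate kinase, was higher (180 and 365) and Slc2a1 and Egln3 lower, while Hif1a was at 233 and 261.

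Of 9 caveolar and transcytosis genes 2 were at least 2-fold lower, against 5.22% of all genes. They were Cav2, a caveola coat protein, at 423 and 155 CPM and Pacsin2, a membrane-bending protein, at 88.0 and 39.3, while Cav1 was at 1576 and 1266. As most genes did, all 14 antigen presentation genes considered lay within 2-fold, among them B2m (3195 and 3417) and H2-K1 (1598 and 1603). In neonatal FACS-sorted endothelial cells B2m and H2-K1 stood at 1431 and 488. Of 35 interferon genes 7 were lower and 1 higher, against 5.22% and 5.4% of all genes, with Ifit1 at 54.9 and 12.7 and the guanylate-binding protein gene Gbp4 at 429 and 323.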
